A study of Mus musculus with 5 samples.

Results

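Brown fat and the soleus muscle are both rich in mitochondria and burn fatty acids, and their mature microRNAs were compared here. The samples were brown adipose tissue and soleus muscle, 2 of the 5 tissues profiled, both from C57BL/6 mice aged 2 to 3 months with no treatment or genetic change named in the labels. Gastrocnemius muscle, inguinal fat and epididymal fat came from mice of the same strain and age and are used only where named. Each tissue gave 1 array, and the number of animals behind its RNA is not stated in the labels. The tissues could therefore not be tested against each other, no p-value was computed, and every difference given is one between 2 arrays. The arrays carry probes with locked nucleic acids, which bind short RNAs tightly, and each probe is printed in 4 spots. The members were all 598 probes that name a mouse microRNA. A level is given in background-subtracted units, the median of the 4 spots after the local background was taken off. A ratio is that of normalized intensities, brown fat over soleus, where each array's units were divided by a single number for that array. A microRNA counted as detected at 50 units or more.

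MicroRNAs are short RNAs that guide a silencing complex to messenger RNAs, mainly through a seed near their 5′ end, and lower the output of their targets. Brown fat oxidises fuel to make heat through an uncoupling protein in its mitochondria. The soleus is a postural hindlimb muscle with many slow fibres, which contract on oxidative metabolism for long periods. Many brown adipocytes and the cells of skeletal muscle descend from a shared pool of embryonic precursors in the mouse. Striated muscle is known for its own set of microRNAs, the myomiRs, some of which are encoded inside myosin genes.

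Of the 598 microRNAs, 160 were detected on the brown fat array and 170 on the soleus array. In all 185 were detected on at least 1 array, 145 of them on both, 15 on brown fat alone and 25 on soleus alone. The other 413 were under 50 units on both arrays and have no ratio. The lowest detected values were 51.5 units on brown fat and 50.5 units on soleus, while miR-208a, at 49.0 units on soleus, fell just outside. The arrays were alike in their controls: the 119 spike-in probes summed to 110644 units on brown fat and 113436 units on soleus. Empty spots reached at most 1.5 units on brown fat and 2.5 units on soleus. Spots of one probe scattered with a median SD of 0.16 on the log2 scale, and 0.44 at the 95th percentile. Errors beside a fold are standard errors (SE) on the log2 scale from those spots and cover spot noise only.

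The mature sequences below are those on which the higher microRNAs turn, with the seed (bases 2 to 8 from the 5′ end) in capitals and the rest in lower case. They are shown because several of these microRNAs share a seed or a genomic cluster. Sequences and positions are RefSeq's, on build GRCm38.p6, in which 47 of the 52 array names looked up were matched. Overlap with a protein-coding gene was taken by position alone, and the strands were not compared.
miR-193: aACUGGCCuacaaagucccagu
miR-193b: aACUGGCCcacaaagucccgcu
miR-365: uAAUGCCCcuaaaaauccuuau
miR-182: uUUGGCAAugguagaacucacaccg
miR-96: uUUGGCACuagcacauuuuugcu
miR-32: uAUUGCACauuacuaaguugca
miR-203: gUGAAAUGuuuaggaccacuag
miR-708: aAGGAGCUuacaaucuagcuggg
miR-103: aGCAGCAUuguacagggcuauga
miR-107: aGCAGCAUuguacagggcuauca
miR-17: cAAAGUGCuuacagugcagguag
miR-20a: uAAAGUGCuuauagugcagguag
miR-93: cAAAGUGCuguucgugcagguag
miR-106b: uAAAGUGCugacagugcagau
miR-19a: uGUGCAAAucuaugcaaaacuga
miR-19b: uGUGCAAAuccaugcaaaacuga

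The array's miR-193 was matched to RefSeq's miR-193a-3p, which shares its seed with miR-193b and differs from it at 3 of 22 bases. Their genes each lie beside a copy of the miR-365 gene. miR-193 is at chr11:79712009-79712030 and a miR-365 copy at chr11:79726467-79726488, with 14436 bases between them on the plus strand. miR-193b is at chr16:13449570-13449591 and the other miR-365 copy at chr16:13453895-13453916, with 4303 bases between them on the plus strand. Both copies give the same mature miR-365, so its probe reads their sum. miR-182, at chr6:30165962-30165986, and miR-96, at chr6:30169506-30169528, lie 3519 bases apart on the minus strand, and their seeds differ at 1 base. miR-103 and miR-107 share a seed and differ at 1 of 23 bases, so each probe may bind both. By position, their genes lie within pantothenate kinase genes, miR-107 at chr19:34820700-34820722 on the minus strand within Pank1, and the 2 copies of miR-103 within Pank3 and Pank2. miR-17, miR-20a, miR-93 and miR-106b share the seed AAAGUGC, and miR-19a and miR-19b share GUGCAAA.

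For the lower microRNAs, the sequences shown are those of slow-fibre and muscle microRNAs, of miR-128, of the Hox cluster microRNA miR-196a, of both arms of miR-434 and of miR-24 with its opposite arms. Capitals again mark the seed.
miR-208b: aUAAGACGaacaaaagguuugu
miR-499: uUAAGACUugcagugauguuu
miR-206: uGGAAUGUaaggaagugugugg
miR-128: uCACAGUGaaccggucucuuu
miR-196a: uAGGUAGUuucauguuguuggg
miR-434-3p: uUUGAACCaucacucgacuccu
miR-434-5p: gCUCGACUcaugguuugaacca
miR-24-1*: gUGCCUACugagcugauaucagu
miR-24-2*: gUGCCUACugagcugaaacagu
miR-24: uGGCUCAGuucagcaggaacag

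miR-208b, at chr14:54975710-54975731 on the minus strand, lies within Myh7, the gene of the slow myosin heavy chain. miR-499, at chr2:155622893-155622913 on the plus strand, lies within Myh7b, a related myosin gene, and its seed differs from that of miR-208b at 1 base. miR-206 is at chr1:20679055-20679076 on the plus strand, 3757 bases before miR-133b. The arms of the miR-434 precursor are at chr12:109594528-109594549 and chr12:109594565-109594586 on the plus strand. They overlap Rtl1 by position, which does not make Rtl1 their host gene. miR-24-1* and miR-24-2* come from different precursors, at chr13:63301213-63301235 and chr8:84208839-84208860 on the plus strand, and share a seed, while the main arm miR-24 is the same from both.

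Differences ran in both directions. Of the 185 detected microRNAs, 59 (31.9%) differed at least 2-fold between the arrays. Higher in brown fat were 30 (16.2%), led by miR-203, miR-708, miR-455 and miR-193, and lower were 29 (15.7%), led by miR-208b, miR-206, miR-133a* and miR-499. The remaining 126 lay within 2-fold. A microRNA under 50 units on 1 array was set there to that array's lowest detected value, unless its own value was higher, and its fold is given as "at least". Such bounds made up 5 of the 30 higher microRNAs and 13 of the 29 lower ones. For all 59 the 4 spots on brown fat did not overlap the 4 spots on soleus. That was not particular to the 59. The spots did not overlap either for some microRNAs within 2-fold, such as miR-126-3p, 1.30-fold higher, and miR-24, 1.38-fold lower, though those of miR-30a did. Among the 145 microRNAs detected on both arrays, 41 (28.3%) passed 2-fold, while 79 differed by less than 1.5-fold, and the median log2 ratio was 0.20 (quartiles -0.36 and 0.64). Scaling each array by its 75th percentile over probes detected on all 5 arrays moved that median to -0.093 and the split to 19 higher and 41 lower, and over all probes to -0.065 with 20 higher and 39 lower. In every one of the 6 scalings tried, 17 of the 30 higher microRNAs remained past the limit, and so did 25 of the 29 lower ones. With a floor of 100 units, which lowers every bound by construction, 6 of the 30 and 7 of the 29 came under 2-fold. Just inside the limit were let-7b, 2.02-fold higher, and miR-335-5p, 2.01-fold lower, and just outside were miR-805, 1.93-fold higher, and miR-497, 1.99-fold lower.

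**Figure D1:**
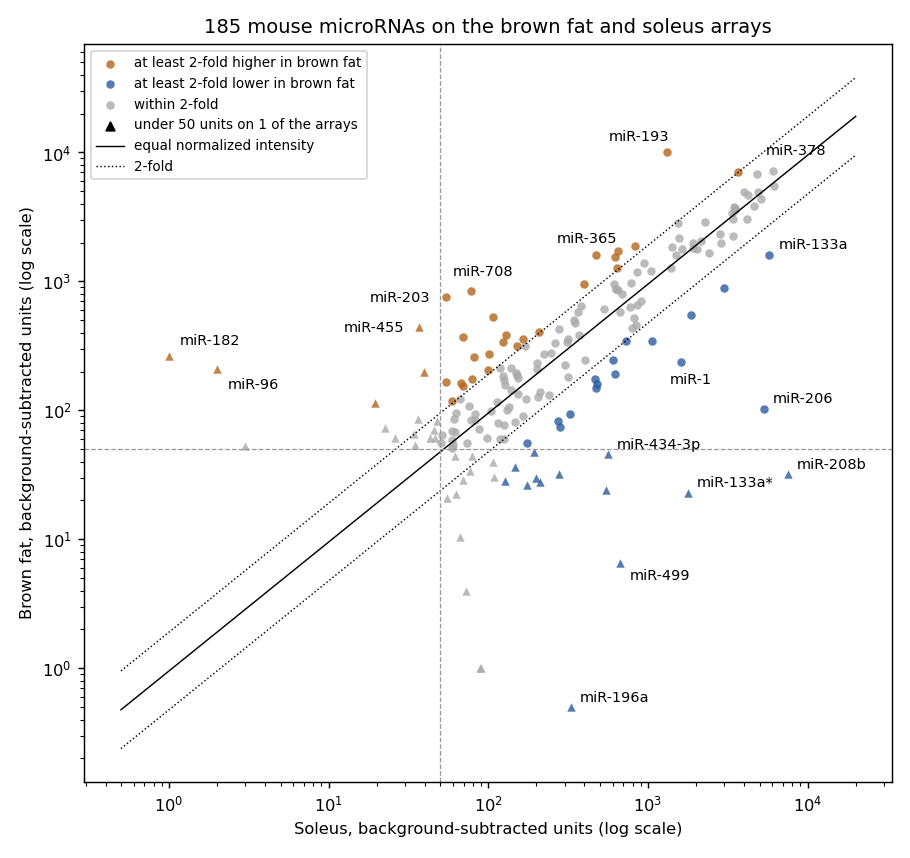
Background-subtracted units on the brown fat array (vertical, log scale) against the soleus array (horizontal, log scale) for the 185 detected mouse microRNAs, with 0 drawn at 0.5. The solid line marks equal normalized intensity, dotted lines 2-fold and dashed lines 50 units; triangles were under 50 units on 1 array. Most points follow the line, 30 lie at least 2-fold above it and 29 at least 2-fold below, and miR-208b and miR-206 lie far to the lower right.

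The microRNAs linked to brown adipocytes were mostly higher in brown fat. The list was chosen with earlier results of these data known. Of its 18 probes, 12 were detected on at least 1 array, 3 of them on brown fat alone, and those 3 could not come out lower. At least 2-fold higher in brown fat were 8 of the 12, and none was at least 2-fold lower, beside 16.2% and 15.7% over all 185. The median log2 ratio of the 12 was 2.09, and that of the 9 detected on both arrays was 1.82. Over all 185 microRNAs the median was 0.13. The list's median stayed between 1.63 and 2.06 under the other scalings. Summed over the 12, brown fat gave 27460 units, against 15260.5 units in soleus.

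The miR-193 and miR-365 microRNAs, which are encoded side by side, were all higher in brown fat. miR-193 had 10094.5 units in brown fat, with spots from 9631 to 10845, against 1315 units in soleus, with spots from 1195 to 1411, a ratio of 8.06-fold (SE 0.06). miR-193b, reported to promote brown adipocyte formation from mouse precursors, had 373 units in brown fat and 69.5 units in soleus, 5.63-fold higher (SE 0.17). miR-365, encoded beside both, had 1589.5 units in brown fat and 473 units in soleus, 3.53-fold higher (SE 0.10). Each of these 3 stayed past 2-fold under all 6 scalings, with miR-193b at 3.44-fold after normexp background correction and quantile normalization. The opposite arm of the miR-193 precursor, miR-193*, was under 50 units on both arrays.

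Of the other members, miR-203 and miR-455 were near or under the floor in soleus. miR-203, best known from differentiating skin epithelium and also reported in brown adipocytes, had 757 units in brown fat and 54 units in soleus, 14.7-fold higher (SE 0.10). Its fold was 7.13 after normexp and quantile normalization. miR-455, reported to drive brown adipocyte formation in mice, had 446.5 units in brown fat and 37 units in soleus, at least 9.28-fold higher (4.72 after normexp and quantile normalization). The opposite arm, miR-455*, had 53 units in brown fat and 3 units in soleus, which gives a bound of only 1.10-fold because its brown fat level was near the floor. miR-32, reported to be induced in brown fat by cold, had 529.5 units in brown fat and 107.5 units in soleus, 5.17-fold higher (SE 0.13). miR-378 was the exception among the best known members. It lies within the gene of a mitochondrial coactivator, Ppargc1b, and had 7126.5 units in brown fat and 6074.5 units in soleus, 1.23-fold higher (SE 0.14), with spots from 6646 to 7721 in brown fat and from 4395 to 6497 in soleus. Its opposite arm miR-378* had 408.5 units in brown fat and 209 units in soleus, 2.05-fold higher (SE 0.10), and passed 2-fold in 1 of the 6 other scalings. miR-30b and miR-30c, also listed, stayed within 2-fold.

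The cluster of miR-183, miR-96 and miR-182, known from sensory cells, gave signal on the brown fat array and almost none on the soleus array. miR-182 had spots of 227, 263, 265 and 267 in brown fat, against 1, 1, 1 and 2 in soleus, at least 5.49-fold higher. miR-96 had 210 units in brown fat and 2 units in soleus, at least 4.36-fold higher. miR-183 stayed under the floor on both arrays, with 39 units in brown fat and 3 units in soleus. The bounds were 3.08 for miR-182 and 2.52 for miR-96 after normexp and quantile normalization. Of the other arrays, inguinal fat held 9 units of miR-182 and 12.5 units of miR-96, and epididymal fat 2 and 4 units. Some of these microRNAs also occur in epithelium. Of the 10 epithelial probes, miR-200a and miR-200b included, none was detected on either array. The part of epithelial cells in these values was not tested.

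**Figure D2:**
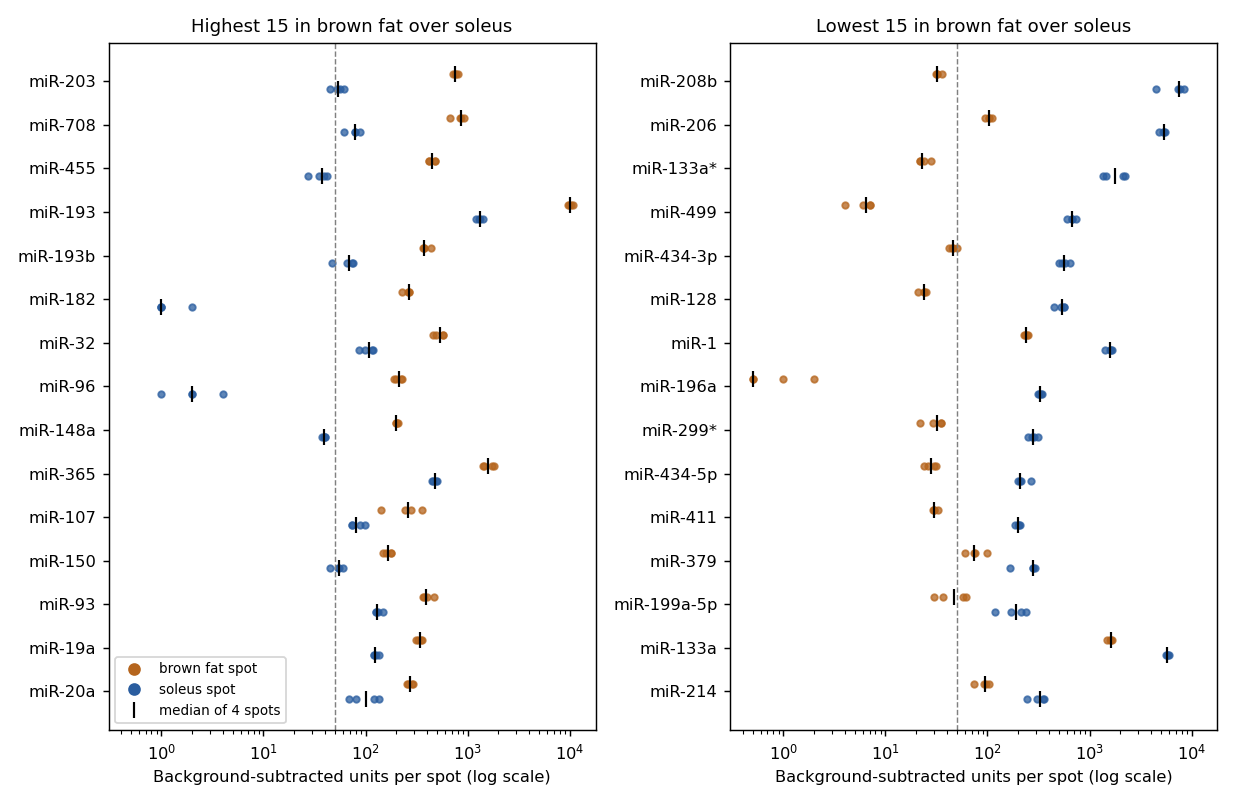
Background-subtracted units of each of the 4 spots (log scale) for the 15 microRNAs with the highest and the 15 with the lowest ratio of brown fat over soleus. Brown fat is the upper row of each pair and soleus the lower, bars are medians, the dashed line is 50 units and spots at 0 are drawn at 0.5. The rows never overlap, and miR-182 and miR-96 lie at a few units in soleus.

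miR-708 belonged to none of the lists, and it had 850 units in brown fat and 78 units in soleus, 11.4-fold higher (SE 0.14). It lies within Tenm4, at chr7:96249450-96249472 on the plus strand. After normexp and quantile normalization its fold was 6.45. On the white fat arrays it had 623.5 units in inguinal and 1676 units in epididymal fat, so that high levels were not limited to brown fat.

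Of 16 probes for microRNAs linked to the formation of fat cells, 10 were detected; 3 were at least 2-fold higher in brown fat and 1 was as much lower, beside 16.2% and 15.7% over all 185. Their median log2 ratio of 0.09 turned negative under 3 of the 6 scalings. miR-148a, reported to promote fat cell formation, had 200 units in brown fat and 39.5 units in soleus, at least 4.16-fold higher (2.41 after normexp and quantile normalization). miR-107 had 260.5 units in brown fat and 81 units in soleus, 3.37-fold higher (SE 0.30), and its spots were the most scattered of the group, from 140 to 358 in brown fat. miR-103 had 961 units in brown fat and 399 units in soleus, 2.53-fold higher (SE 0.13). Both have been linked in mice to insulin sensitivity of the liver and of fat. miR-335-5p, encoded in the imprinted gene Mest, had 347 units in brown fat and 731.5 units in soleus, 2.01-fold lower (SE 0.10), and 1.81-fold lower after normexp and quantile normalization. miR-21, miR-26a, miR-26b, miR-143, miR-221 and miR-222 stayed within 2-fold.

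The miR-17-92 cluster and its paralogs, known for promoting proliferation, were higher in brown fat as a group. Of 21 probes 9 were detected. At least 2-fold higher were 6 and none was at least 2-fold lower, beside 16.2% and 15.7% over all 185. The median log2 ratio was 1.11 (0.82 to 1.08 under the other scalings). miR-93 had 386 units in brown fat and 128.5 units in soleus, 3.15-fold higher (SE 0.10). miR-19a had 337.5 units in brown fat and 123.5 units in soleus, 2.87-fold higher (SE 0.06), and miR-20a was 2.82-fold higher (SE 0.24). Folds were smaller for miR-17, at 2.30, miR-19b, at 2.16, and miR-106b, at 2.11. Of the 6 other scalings, miR-17 was past 2-fold in only 3, and miR-19b and miR-106b in only 2 each. The genes of miR-17, miR-19a, miR-20a and a copy of miR-19b follow each other on chromosome 14, with at most 651 bases between any 2 of them, and those of miR-106b, miR-93 and miR-25 lie within Mcm7 on chromosome 5. miR-25 had only 61 units in brown fat and 26 units in soleus, at least 1.27-fold higher. Close sequences may bind each other's probes, so the separate values of these relatives are uncertain.

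miR-10a, encoded among the Hox genes that pattern the body axis, had 1898 units in brown fat and 824.5 units in soleus, 2.42-fold higher (SE 0.10), with 1.98-fold under the 75th-percentile scaling over probes detected on all 5 arrays. Its relative miR-10b was 1.31-fold higher. miR-196a, another Hox cluster microRNA, ran the other way: its spots lay at 0, 0, 1 and 2 in brown fat, against 309, 321, 337 and 345 in soleus, at least 6.09-fold lower (3.51 after normexp and quantile normalization). miR-196b had 1 unit in brown fat and 89 units in soleus, a bound of 1.65-fold. miR-196a was detected in gastrocnemius and inguinal fat, at 465.5 and 177.5 units, and had 3.5 units in epididymal fat.

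On the soleus side the muscle microRNAs held the 4 lowest ratios of all 185, and their folds varied widely. Of 9 striated muscle probes 8 were detected, 3 of them on soleus alone, and those 3 could not come out higher in brown fat. All 8 were at least 2-fold lower in brown fat, beside 15.7% over all 185. The median log2 ratio was -3.16 (-3.45 to -2.55 under the other scalings), and -1.77 over the 5 detected on both arrays. miR-208a, the cardiac relative of miR-208b, was under the floor. Summed over the 8, brown fat gave 2953.5 units, against 25778 units in soleus. In soleus the 8 ran from 174 to 7479.5 units. High levels of the list as a whole were not particular to soleus, since in gastrocnemius the same 8 summed to 15114 units. Within the list, miR-208b and miR-499 did differ between the muscles, with 239.5 and 32 units in gastrocnemius against 7479.5 and 670 units in soleus.

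The slow-fibre microRNAs were below the floor in brown fat. miR-208b had spots of 31, 32, 32 and 36 in brown fat, against 4436, 7328, 7631 and 8459 in soleus, at least 138-fold lower. miR-499 had 6.5 units in brown fat and 670 units in soleus, at least 12.4-fold lower. The bounds were 74.6 and 6.28 after normexp and quantile normalization. miR-206, which favours muscle differentiation and repair, had 103 units in brown fat and 5337.5 units in soleus, 49.4-fold lower (SE 0.06).

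miR-1 and the miR-133 microRNAs, which act in muscle differentiation, were nearer to soleus in level. miR-1 had 237 units in brown fat and 1598 units in soleus, 6.43-fold lower (SE 0.06). miR-133a had 1605 units in brown fat and 5753 units in soleus, 3.42-fold lower (SE 0.04), and miR-133b had 891 units in brown fat and 2988 units in soleus, 3.20-fold lower (SE 0.21). The opposite arm miR-133a* had 23 units in brown fat and 1778 units in soleus, at least 32.9-fold lower (15.8 after normexp and quantile normalization). The arms of the miR-133a precursor thus gave folds far apart, and so did the neighbours miR-206 and miR-133b. miR-486, found in muscle and in red cells, had 56 units in brown fat and 174 units in soleus, 2.96-fold lower (SE 0.16), and 1.63-fold lower with a floor of 100 units. In white fat the signals were lower than in brown fat, with 110.5 units of miR-133a and 21.5 units of miR-1 in inguinal fat and 72 and 7.5 units in epididymal fat. The probes for miR-1 and miR-206, and for miR-133a and miR-133b, may bind each other's targets. In bulk tissue, fewer cells of a type and less RNA per cell cannot be told apart, and the part of muscle fibres in the brown fat values was not tested.

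miR-133a and miR-133b also belong to the microRNAs reported to hold back brown adipocytes, by lowering the regulator Prdm16. Of 16 probes on that list 10 were detected, 2 at least 2-fold higher and 3 at least 2-fold lower in brown fat, beside 16.2% and 15.7% over all 185. On soleus alone 2 were detected, and those could not come out higher in brown fat. The median log2 ratio of the 10 was -0.60. The higher ones were miR-93 and miR-106b, and the lower ones were miR-133a, miR-133a* and miR-133b. miR-155, which also acts in leukocytes, had 40 units in brown fat and 107 units in soleus, at least 1.98-fold lower. miR-27a, miR-27b, miR-34a and miR-125b-5p stayed within 2-fold.

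The imprinted Dlk1-Dio3 region, whose microRNAs are transcribed from the maternal copy, held 9 of the 29 lower microRNAs. Of its 69 probes 19 were detected, 11 of them on soleus alone, and under the rule for bounds those 11 could not come out higher in brown fat. None of the 19 was at least 2-fold higher and 9 were as much lower, beside 16.2% and 15.7% over all 185. The median log2 ratio was -0.999 (-1.29 to -0.59 under the other scalings), and -0.55 over the 8 detected on both arrays. The 9 lie on the plus strand of chromosome 12, within 134.0 kb. miR-434-3p had 45.5 units in brown fat and 559 units in soleus, at least 10.3-fold lower, and the other arm, miR-434-5p, had 28 units in brown fat and 209.5 units in soleus, at least 3.88-fold lower. miR-299* was at least 5.16-fold lower, miR-411 at least 3.70-fold and miR-127 at least 3.21-fold. Detected on both arrays were miR-379, 3.62-fold lower (SE 0.24), miR-329, 3.15-fold lower (SE 0.16), and miR-136, with 150 units in brown fat and 473 units in soleus, 3.01-fold lower (SE 0.08). The smallest difference of the 9 was that of miR-381, at least 2.36-fold lower. Normexp and quantile normalization gave bounds of 5.29 for miR-434-3p, 2.57 for miR-434-5p, 3.14 for miR-299*, 2.45 for miR-411 and 1.72 for miR-381. With a floor of 100 units miR-434-5p, miR-411, miR-127 and miR-381 had bounds under 2-fold, of 1.97, 1.88, 1.63 and 1.197. Some of the region was nearly equal on the arrays: miR-487b had 384.5 units in brown fat and 369 units in soleus, and miR-494 had 98.5 units in brown fat and 104 units in soleus.

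**Figure D3:**
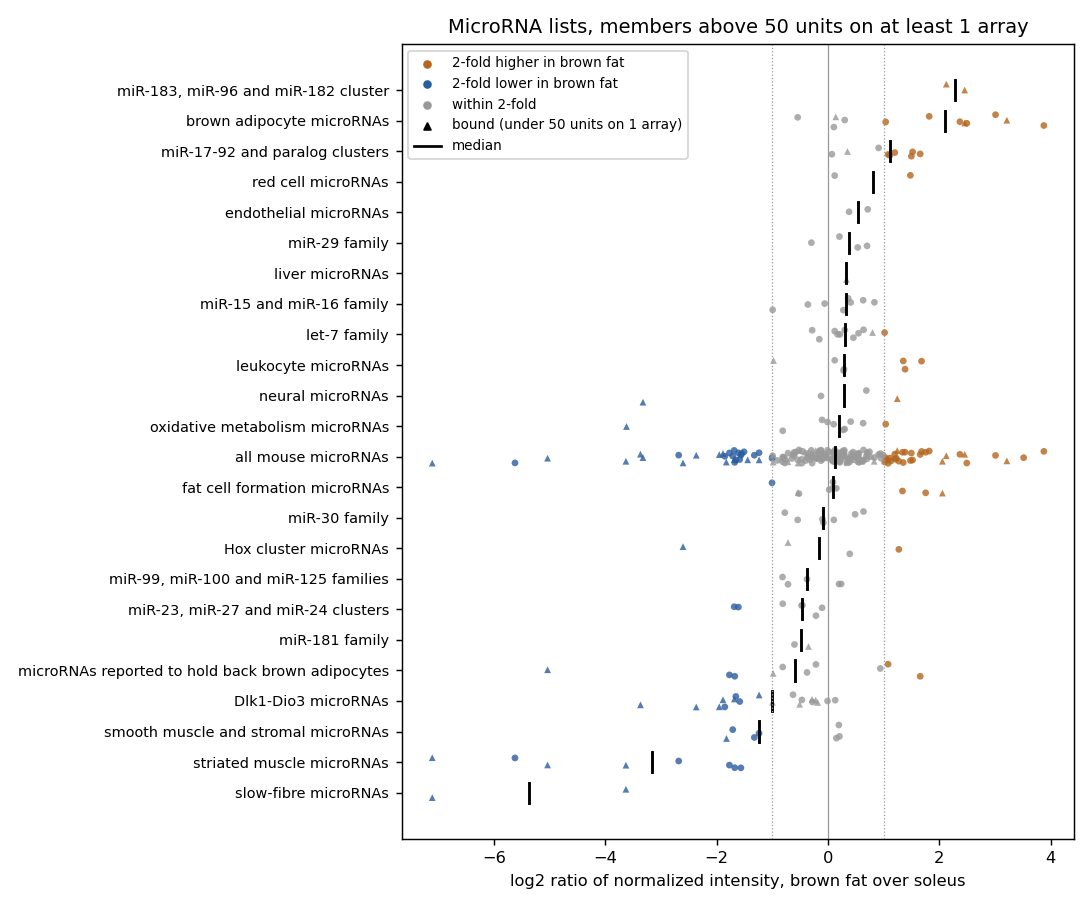
Log2 ratio of normalized intensity, brown fat over soleus (horizontal), for the detected members of each microRNA list and for all 185, ordered by their median (black bar). Triangles are bounds, dotted lines mark 2-fold, and microRNAs on several lists appear in each. The muscle lists lie lowest with medians of -5.37 and -3.16, and the brown adipocyte list and the miR-183 cluster lie highest with 2.09 and 2.29. The slow-fibre list, at -5.37, and the miR-183 cluster, at 2.29, hold 2 detected members each. All of these are bounds that could not come out the other way.

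miR-128, mainly known from neurons, with gene copies within R3hdm1 and Arpp21, had 24 units in brown fat and 542 units in soleus, at least 10.03-fold lower. Gastrocnemius had 295 units of miR-128. Of the 4 detected neural probes out of 16, miR-128 alone was at least 2-fold lower, beside 15.7% over all 185. Only miR-129-3p was as much higher, beside 16.2%, with 114 units in brown fat and 19.5 units in soleus, at least 2.37-fold. miR-128 was detected on soleus alone and miR-129-3p on brown fat alone, so neither could come out the other way. Their bounds were 5.12 for miR-128 and 1.57 for miR-129-3p after normexp and quantile normalization, and 5.09 and 1.18 with a floor of 100 units. The defining neural microRNAs were near or under the floor, with miR-9 at 46 units in brown fat and 14 units in soleus, and miR-124 at 51.5 units in brown fat and 59 units in soleus.

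Among stromal and smooth muscle microRNAs, 7 of 8 probes were detected, 1 of them on soleus alone. That 1 could not come out higher in brown fat. At least 2-fold lower in brown fat were 4 of the 7 and none was as much higher, beside 15.7% and 16.2% over all 185. The median log2 ratio of the 7 was -1.24, and that of the 6 detected on both arrays was -0.54. These 4 were miR-199 and miR-214 arms, which act in mesenchymal cells. Beside miR-214 lies 1 copy of the miR-199a gene, and both overlap Dnm3 by position. miR-214 had 94.5 units in brown fat and 325 units in soleus, 3.28-fold lower (SE 0.16). miR-199a-5p was at least 3.55-fold lower, miR-199b* 2.50-fold lower and the probe shared by miR-199a-3p and miR-199b 2.36-fold lower, the last at 1.99-fold after normexp and quantile normalization. With a floor of 100 units the bound of miR-199a-5p was 1.80. The smooth muscle microRNAs miR-143 and miR-145 were 1.11-fold and 1.14-fold higher.

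The opposite arms of miR-24 were lower in brown fat while the main arm was not past 2-fold. miR-24-1* had 553.5 units in brown fat and 1869 units in soleus, 3.22-fold lower (SE 0.09), and miR-24-2* had 192.5 units in brown fat and 617 units in soleus, 3.05-fold lower (SE 0.16). The main arm miR-24 had 1980 units in brown fat and 2858 units in soleus, 1.38-fold lower (SE 0.10). Their neighbours miR-23a, miR-23b, miR-27a and miR-27b were between 1.08-fold and 1.76-fold lower.

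MicroRNAs of blood-borne cells were detected on both arrays. Of 11 leukocyte probes 7 were detected. At least 2-fold higher in brown fat were 3 and none was as much lower, beside 16.2% and 15.7% over all 185. miR-155, the 1 member detected on soleus alone, had 40 units in brown fat and a bound of -0.99 on the log2 scale, just within 2-fold. The median log2 ratio of the 7 was 0.29 and turned just negative under 1 scaling, and that of the 6 detected on both arrays was 0.82. The blood-cell microRNA miR-142-3p had 1542.5 units in brown fat and 620 units in soleus, 2.61-fold higher (SE 0.12), and its other arm miR-142-5p was 2.55-fold higher (SE 0.26). miR-150, of mature lymphocytes, had 166.5 units in brown fat and 54.5 units in soleus, 3.21-fold higher (SE 0.11), and miR-223, of myeloid cells, was 1.21-fold higher. With normexp and quantile normalization the folds were 1.94 for miR-150 and 1.74 for miR-142-5p, and with a floor of 100 units 1.72 and 1.69. The red cell microRNA miR-144 had 1717.5 units in brown fat and 646 units in soleus, 2.79-fold higher (SE 0.06), yet its neighbour miR-451, encoded 119 bases away, had 1988 units in brown fat and 1920 units in soleus. Endothelial miR-126-3p and miR-126-5p were 1.30-fold and 1.64-fold higher. miR-122, which marks liver, was under the floor on both arrays. The part of these cells in the microRNAs that were higher in brown fat, the miR-17-92 list included, was not tested.

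Much of the bright signal was shared. Of the 20 brightest probes on each array 16 were the same. Of the 10 with the highest mean level over both arrays, miR-193 and let-7b were past 2-fold. let-7b had 7047.5 units in brown fat and 3655.5 units in soleus, and was under 2-fold in 5 of the 6 other scalings. Among the rest of the 10, miR-30a was 1.07-fold lower, miR-26b 1.06-fold higher and let-7c 1.46-fold higher. Of 20 probes linked to oxidative metabolism 10 were detected, 1 at least 2-fold higher and 1 lower, beside 16.2% higher and 15.7% lower over all 185. Their median log2 ratio of 0.19 turned negative under both 75th-percentile scalings. The higher one was miR-378* and the lower one miR-499. No member passed 2-fold among the detected probes of the miR-29 family (4), the miR-30 family (7), the miR-15 and miR-16 family (8), the miR-181 family (2) and the miR-99, miR-100 and miR-125 families (5). Within the let-7 family 1 of 11 did, let-7b.

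Gastrocnemius, a muscle with mostly fast fibres, gave other folds for some of these microRNAs. Both comparisons share the brown fat array and were not tested against each other. Against gastrocnemius, 22 of 186 microRNAs (11.8%) were at least 2-fold higher in brown fat and 33 (17.7%) lower. miR-193 was 8.06-fold higher than in soleus but 1.43-fold higher than in gastrocnemius, which had 6438.5 units. miR-365 was 3.53-fold higher than in soleus and 1.89-fold higher than in gastrocnemius. miR-193b was 5.63-fold and 3.90-fold higher, and miR-203 14.7-fold and at least 13.7-fold. On the other side, miR-208b was at least 138-fold lower than in soleus and at least 5.08-fold lower than in gastrocnemius, and miR-499, with 32 units in gastrocnemius, was under the floor on both arrays of that pair. miR-206 was 49.4-fold and 31.7-fold lower, and miR-133a 3.42-fold and 3.94-fold. miR-24-1* was 3.22-fold lower than in soleus and 1.63-fold lower than in gastrocnemius, and miR-24-2* 3.05-fold and 1.26-fold. In white fat, miR-193 had 4856.5 units in inguinal and 9617 units in epididymal fat.

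**Figure D4:**
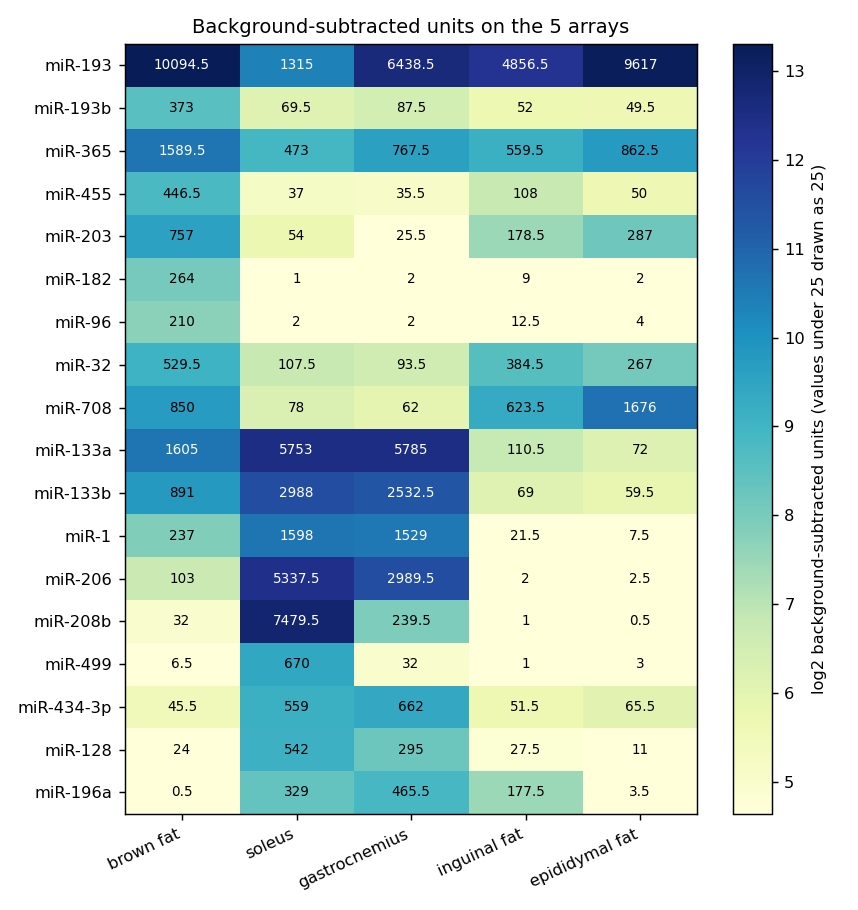
Background-subtracted units of 18 microRNAs on the 5 arrays, as printed numbers and as colour on a log2 scale on which values under 25 are drawn as 25. miR-193 is far lower in soleus, at 1315, than on the other 4 arrays, and miR-182 and miR-96 exceed 50 units in brown fat alone.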

How the data were processed

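Per the labels' protocols, frozen tissue was taken up in Trizol, and column-purified total RNA was labelled for the arrays. Per the file headers, the authors deposited the foreground and background-subtracted intensity of each of the 4 spots of a probe, and the median of these as the probe's value. The authors' normalized intensity is a ratio to the array's median, which was 445.75 units for brown fat and 467.75 units for soleus. The series' value table held the same values, with a largest gap of 5.0e-09 over 598 probes. The scanner software is not given in the sources used here. Precision is limited by the number of arrays, 1 per tissue.

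Ratios, bounds and counts were computed with Python 3.11.15, numpy 2.4.6 and pandas 2.3.3. Normexp correction (offset 50) and quantile normalization used limma 3.58.1 in R 4.3.3. The step that calls 2-fold differences was checked on simulated data. The authors' deposited table of fold ratios held the same ratios without a floor; among probes detected on at least 1 array it gave 39 at least 2-fold lower and 35 at least 2-fold higher in brown fat.

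The members and the 24 lists were chosen with earlier results of these data known. Named were the 15 highest and 15 lowest microRNAs past 2-fold, the 10 with the highest mean level, every list member past 2-fold, detected opposite arms of these, and list members that explain a list's median. Other names, such as miR-805 and miR-497, were chosen after values were seen. The array's names are old in part, and they were matched to RefSeq arms by hand. Alternatives were 6 scalings, other background handling, spot summaries, floors of 25 and 100 units and a limit of 3-fold.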

Additional observations from a re-analysis of the deposited data

Results flagged for a closer look

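Probes outside the 598 mouse microRNAs also gave signal, above the 6.0 units that negative controls reached at most. Among 39 viral probes, mghv-miR-M1-8, named for a mouse herpesvirus, had 197.0 units in brown fat and 186.0 units in soleus. mghv-miR-M1-4 had 62.5 units in brown fat and 87.5 units in soleus, and mghv-miR-M1-7-3p had 76.5 units in soleus, with 43.5 units in brown fat. The labels name no infection, and the source of this signal was not tested. Of 1258 probes that carry no microRNA name, 172 reached 50 units on brown fat and 164 on soleus. Levels near the floor, such as those of miR-455* or miR-129-3p, are to be read beside these values.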

How the results depend on the processing

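No paired analysis was possible because brown fat and soleus have 1 array each and share no numbered pairs. None of the 59 microRNAs past 2-fold changed direction under the 6 scalings. Apart from normexp and quantile normalization, these shift every log2 ratio by the same amount. That shift was too small to turn a ratio past 2-fold, so for them the outcome was fixed by construction. The medians of the fat cell formation, oxidative metabolism, leukocyte and neural lists changed sign under 3, 2, 1 and 1 of them. The 30 higher microRNAs became 19 with the 75th percentile over probes detected on all 5 arrays, 19 with normexp and quantile normalization and 13 at a limit of 3-fold. The 29 lower ones became 16 when only microRNAs detected on both arrays counted. The median log2 ratio of 0.20 became -0.093 and -0.065 under the 75th-percentile scalings over detected and over all probes. The cause of these shifts was not tested, except that a higher limit and fewer probes lower a count by construction. Elsewhere the counts ran from 20 to 35 higher and from 21 to 41 lower; spike-in scaling gave 29 and 32. Of the 59 microRNAs past 2-fold, 9 higher and 9 lower ones were over 1.5 times smaller under at least 1 scaling, mostly with normexp and quantile normalization, which adds an offset of 50. With a floor of 100 units, 9 of the higher and 14 of the lower ones were over 1.5 times smaller, and miR-150, miR-142-5p, miR-129-3p, miR-652, miR-423-5p, miR-676, miR-434-5p, miR-411, miR-199a-5p, miR-127, miR-486, miR-677 and miR-381 came under 2-fold. Spot noise, the floor and the single array per tissue limit every value. Animals, extraction and labelling are not covered by any error given.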

Other observations

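Several microRNAs past 2-fold belonged to no list, and they are named here after their values were seen. Higher in brown fat were miR-652, with 155 units in brown fat and 69.5 units in soleus (2.34-fold), miR-423-5p, with 174.5 units in brown fat and 79 units in soleus (2.32-fold), miR-350 (2.19-fold) and miR-676 (2.08-fold), each of which was under 2-fold in at least 3 of the 6 other scalings. Lower in brown fat were miR-185, with 161.5 units in brown fat and 482.5 units in soleus (2.85-fold), and miR-677 (at least 2.72-fold, but 1.92-fold after normexp and quantile normalization and 1.38-fold with a floor of 100 units). The opposite arm miR-22* had 343.5 units in brown fat and 1056.5 units in soleus, 2.93-fold lower (SE 0.10), while the main arm miR-22 had 2344 units in brown fat and 2808.5 units in soleus, 1.14-fold lower. Gastrocnemius had 955 units of miR-22* and 2110 units of miR-22.

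miR-805 stood just within 2-fold, at 2859 units in brown fat and 1550.5 units in soleus. It had 1729 units in gastrocnemius, 449.5 units in inguinal fat and 361.5 units in epididymal fat, so the 3 tissues other than white fat held the higher levels on these single arrays.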
